A study of Mus musculus with 16 samples.

Results

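The RNA of 8 sialyltransferase genes that act mainly on glycoproteins was followed in the cortex and cerebellum of the mouse. The 8 genes, *St3gal1*, *St3gal3*, *St3gal4*, *St3gal6*, *St6gal1*, *St6gal2*, *St6galnac3* and *St6galnac4*, were taken by name from the 37583 genes of the deposited tables. All 8 had counts in every library and passed the filter on low counts in every comparison. They belong to the 20 sialyltransferase genes of the files. The samples came from C57BL/6J mice that were either wild type or carried a change in *Slc39a8*, which encodes a metal ion transporter, and which the labels call A391T (A393T). The labels do not give the zygosity or the age. The study's methods describe adult wild-type mice harvested at 1 age, with male animals for its sequencing, unperfused tissue and the hemisphere opposite to the one used for glycan analysis. Each group, wild-type cortex, A391T cortex, wild-type cerebellum and A391T cerebellum, held 4 libraries, 1 per mouse, and each of the 8 mice gave both regions. Mice 1 to 4 of a genotype are named in the order of the animal numbers in the labels. No agent was given in any group.

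Sialyltransferases are membrane enzymes of the Golgi apparatus that move sialic acid from CMP-sialic acid to the end of a glycan chain. The St3gal enzymes link it to galactose in an α2,3 bond, the St6gal enzymes to galactose in an α2,6 bond, and the St6galnac enzymes to N-acetylgalactosamine in an α2,6 bond. In the brain, sialic acids cap glycoproteins and gangliosides and are read by lectins such as the myelin-associated glycoprotein. Other members of the same families act mostly on glycolipids or build chains of sialic acid.

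All sialyltransferases share short conserved stretches called sialylmotifs, 1 of which holds a histidine and a glutamate with 4 residues between them. The coding sequence from that histidine codon to the glutamate codon is shown for each gene, since it is the part of the 8 transcripts that ties them to 1 enzyme family. It was taken from the Ensembl transcript with the longest coding sequence in the annotation of NCBIM37 (mm9), as the last such match before the stop codon. The codons of the histidine and of the glutamate are in capitals.
*St3gal1*, codons 313 to 318: CACgatggtgacttcGAG
*St3gal3*, codons 349 to 354: CACaacatccagcgaGAG
*St3gal4*, codons 309 to 314: CATaatgtctcccaaGAG
*St3gal6*, codons 307 to 312: CACaatctgactgcaGAG
*St6gal1*, codons 367 to 372: CATccgctcctcttcGAG
*St6gal2*, codons 478 to 483: CACccactgctctatGAA
*St6galnac3*, codons 277 to 282: CACaggttcatcaccGAG
*St6galnac4*, codons 274 to 279: CATcgcttcattaccGAG

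The match lay between 23 and 47 residues before the end of each protein. In *St3gal1* the same pattern occurred 3 times in the coding sequence and in *St3gal3* 2 times, and in the other genes once. The encoded proteins run from 302 residues for *St6galnac4* to 524 residues for *St6gal2*.

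The genes lie on 7 chromosomes of NCBIM37, where *St3gal6* and *St6gal1* share chromosome 16. *St6gal2* (ENSMUSG00000024172) runs from 55584680 to 55653879 on the plus strand of chromosome 17. *St3gal1* (ENSMUSG00000013846) runs from 66934437 to 66945922 on the minus strand of chromosome 15, and *St6galnac4* (ENSMUSG00000079442) from 32442615 to 32455218 on the plus strand of chromosome 2. Counting ignored strand, and exons of *Dcbld2* on the other strand cover 26.4% of the exon bases of *St3gal6* (ENSMUSG00000022747). For *St3gal4* (ENSMUSG00000032038) and *St6gal1* (ENSMUSG00000022885) the shared part was 4.09% and 4.07%, and for the other genes it was 0. Reads in such shared parts cannot be assigned to either gene. The annotated model of *St6galnac3* (ENSMUSG00000052544) holds 918 bases of coding sequence and no untranslated region, so its level rests on the coding part alone.

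The 16 libraries held from 20813432 to 30497206 counts on genes. The region labels matched the marker genes, since all 7 cortex markers in the files were lower in cerebellum and all 8 cerebellum markers were higher, past both criteria given below. Summed over the cortex markers, the level was from 494 to 564 TPM in cortex libraries and from 30.1 to 40.01 TPM in cerebellum libraries. TPM here is the count per base of gene length, with every library brought to an equal sum. The cerebellum markers summed to between 29.8 and 44.6 TPM in cortex libraries and to between 5272 and 5841 TPM in cerebellum libraries. The genotype of a library could not be checked from gene counts, since the variant changes the protein sequence of *Slc39a8*. Its level lay between 1.63 and 3.16 TPM in all 16 libraries. A second deposited table, of RPKM values, gives the genotypes of 4 of the 8 mice the other way round, with A391T mice 3 and 4 as wild type and wild-type mice 1 and 2 as A391T. The names of the labels are used here. The cerebellum library of A391T mouse 1 stood apart over all genes. Its counts differed from those of the other 3 libraries of its group by a chi-square of 62.3 to 74.5 per degree of freedom, where these 3 differed from each other by 7.23 to 8.13 and pairs of libraries in the other groups by 3.09 to 34.4. It also had the highest share of ambiguous reads, 2.75% against 2.41% to 2.51% in the other cerebellum libraries. The highest values in the other groups were those of pairs with the cortex library of wild-type mouse 4.

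Among the genes for enzymes that act on galactose of N-glycans, the α2,3 genes *St3gal3*, *St3gal4* and *St3gal6* were higher in cerebellum and the α2,6 genes *St6gal1* and *St6gal2* lower, by less than 2-fold in all of them but *St6gal2*. In the O-glycan genes of the 8 that differed between regions, the direction did not follow the bond. The α2,3 gene *St3gal1* was lower and the α2,6 gene *St6galnac4* higher. Outside the 8, *St3gal2*, an α2,3 gene whose enzyme also acts on core 1 chains, was higher in wild-type mice, at 0.52 on the log2 scale. In wild-type mice the α2,6 gene *St6gal2* was 18.05-fold lower in cerebellum than in cortex. *St3gal1*, whose enzyme adds sialic acid to the galactose of core 1 O-glycans, was 3.29-fold lower. *St6galnac4*, whose enzyme adds a second sialic acid to that O-glycan, was 2.88-fold higher. A gene was called at a Benjamini-Hochberg adjusted p under 0.05 over all genes and a fold change of at least 2, from the quasi-likelihood test in edgeR. In wild-type mice 1 of the 8 genes was called higher in cerebellum and 2 were called lower, where 10.5% and 14.2% of the 16040 genes tested were called in these directions. By the adjusted p alone, 4 of the 8 genes were higher and 3 lower, where 34.7% and 33.1% of all genes tested were. Over all genes tested these were 5572 higher and 5303 lower, and with libraries scaled by their totals 6792 and 4408. The median log2 fold change of the 8 genes was 0.18, against 0.02 for all genes tested, and the median of its size was 0.61 against 0.46. In bulk tissue, fewer cells of a type and less RNA per cell cannot be told apart.

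**Figure D1:**
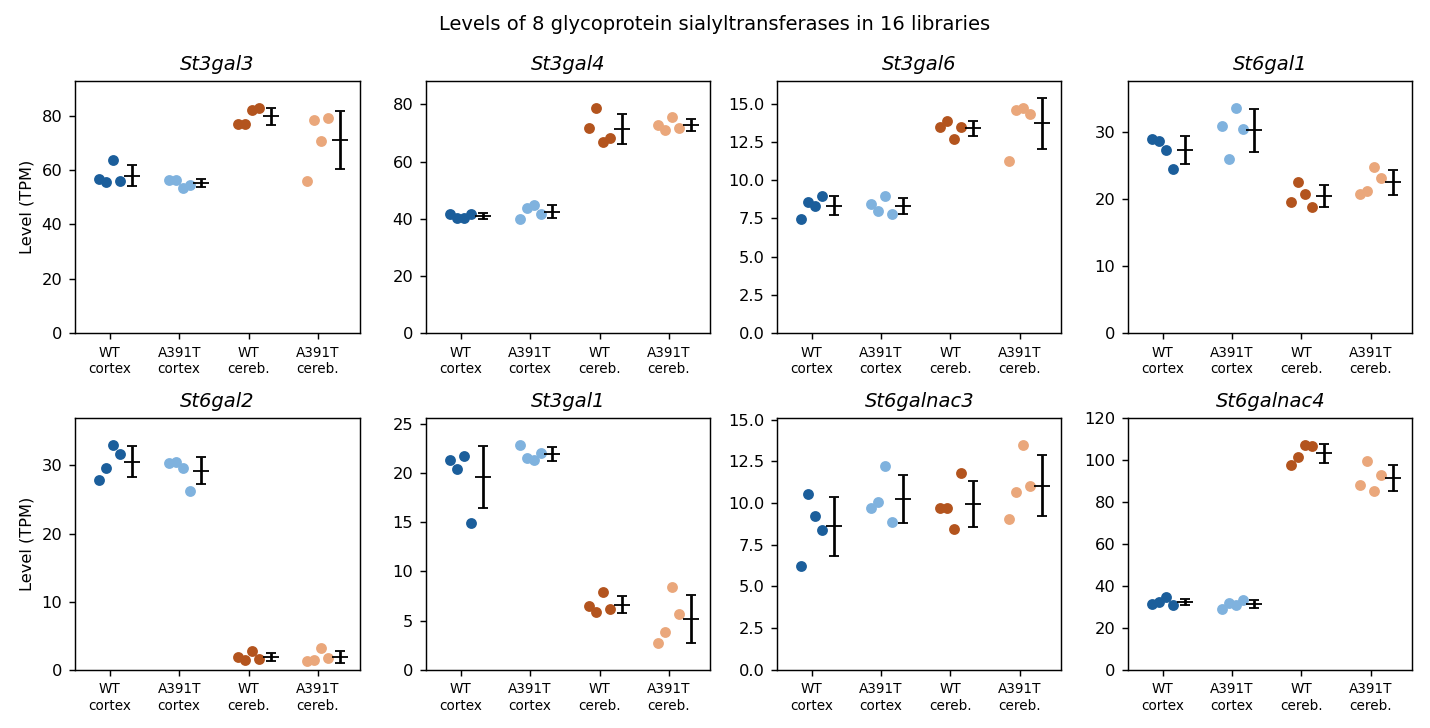
Level in TPM (vertical axes, from 0) of each of the 8 genes in the 4 groups, with 1 point per library and the mean ± SD (n = 4) beside the points. The *St6gal2* points fall from between 26.3 and 33.0 TPM in cortex to between 1.25 and 3.12 TPM in cerebellum, and the *St6galnac4* points rise from at most 34.5 to at least 85.1 TPM.

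*St6gal2* had the widest difference among the 8 genes. Its enzyme adds α2,6-linked sialic acid to galactose, as St6gal1 does, but its RNA is known to be concentrated in the brain. In wild-type cortex its level was 27.9, 29.6, 33.0 and 31.7 TPM in mice 1 to 4. In wild-type cerebellum of the same mice it was 1.81, 1.44, 2.68 and 1.58 TPM, on 76 to 138 counts per library. Every cortex library stood above every cerebellum library. The wild-type log2 fold change was -4.17 (SE 0.15, 95% interval -4.50 to -3.85, adjusted p = 8.3e-10 from edgeR). In A391T cortex the level was 30.4, 30.5, 29.7 and 26.3 TPM in mice 1 to 4. In A391T cerebellum it was 1.25, 1.44, 3.12 and 1.79 TPM. The groups again did not overlap, and the log2 fold change was -4.06 (SE 0.23, adjusted p = 1.6e-07 from edgeR). Within single mice the log2 ratio of cerebellum to cortex TPM lay between -4.60 and -3.25, and was negative in 8 of 8 mice.

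*St6gal1*, the broadly expressed gene for the other α2,6 enzyme that acts on N-glycans, differed far less between regions. In wild-type mice it stood at 27.3 ± 2.05 TPM in cortex, against 20.4 ± 1.64 TPM in cerebellum (SD over 4 mice). The cortex libraries ran from 24.4 to 28.9 TPM and the cerebellum libraries from 18.7 to 22.5 TPM, with no overlap. The log2 fold change was -0.57 (SE 0.09, adjusted p = 0.00012 from edgeR), under the 2-fold criterion. In A391T mice it was -0.53, with a cortex level of 30.2 ± 3.14 TPM and a cerebellum level of 22.4 ± 1.86 TPM.

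In cortex *St6gal1* and *St6gal2* stood at nearly the same level per deposited gene length, and in cerebellum *St6gal1* carried most of their sum. *St6gal2* made up 52.8% ± 3.42 of the TPM of both genes in wild-type cortex and 49.3% ± 3.51 in A391T cortex (SD, n = 4 each). In cerebellum its share was 8.43% ± 2.25 in wild-type mice and 7.61% ± 2.47 in A391T mice. All 8 cortex libraries had a share of at least 46.4%, and all 8 cerebellum libraries of at most 11.4%. These shares are given as a description, with no test.

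The 3 genes for α2,3 enzymes that act on the galactose of N-glycan branches were all higher in cerebellum, by less than 2-fold. *St3gal3*, linked in humans to intellectual disability and epilepsy, stood at 57.9 ± 3.83 TPM in wild-type cortex and at 79.7 ± 3.22 TPM in wild-type cerebellum. Its log2 fold change was 0.31 (SE 0.06, adjusted p = 0.00061 from edgeR). In the A391T mice it was 0.26 (adjusted p = 0.023 from edgeR), and the cerebellum library of mouse 1, at 55.8 TPM, lay within the range of the A391T cortex libraries, 53.4 to 56.4 TPM. The A391T value did not pass the adjusted p in 5 of the 8 fits made with 1 library fewer. The adjusted p was 0.05, 0.068 and 0.054 without the cortex library of mouse 2, 3 or 4, and 0.064 and 0.061 without the cerebellum library of mouse 2 or 4. With only the mice whose genotype is named alike in both deposited sources, it was 0.057 in wild-type and 0.4 in A391T mice (edgeR).

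*St3gal4* stood at 40.9 ± 0.904 TPM in wild-type cortex and at 71.4 ± 5.35 TPM in wild-type cerebellum, a log2 fold change of 0.65 (SE 0.08, adjusted p = 1.5e-05 from edgeR). The 8 cortex libraries of both genotypes ran from 39.9 to 44.8 TPM and the 8 cerebellum libraries from 66.7 to 78.8 TPM. *St3gal6* stood lower in both regions, at 8.34 ± 0.637 TPM in wild-type cortex and 13.4 ± 0.491 TPM in wild-type cerebellum. Its log2 fold change was 0.53 (SE 0.08, adjusted p = 9.3e-05 from edgeR). *Dcbld2*, whose exons share bases with those of *St3gal6*, stood at 11.4 to 16.9 TPM in cortex libraries and at 11.0 to 16.1 TPM in cerebellum libraries. Reads on the shared bases count for neither gene, and the effect of this on *St3gal6* was not tested.

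Across these 5 genes, the share of the α2,6 pair was lower in cerebellum than in cortex in every mouse. *St6gal1* and *St6gal2* together made up 35.0% ± 0.582 of the summed TPM of *St3gal3*, *St3gal4*, *St3gal6*, *St6gal1* and *St6gal2* in wild-type cortex (SD, n = 4). The share was 11.9% ± 0.752 in wild-type cerebellum. In A391T mice it was 35.9% ± 1.33 in cortex and 13.4% ± 1.09 in cerebellum. The lowest cortex library had 34.3% and the highest cerebellum library 14.7%. In wild-type cortex the α2,3 sum was 107 ± 3.46 TPM and the α2,6 sum 57.8 ± 1.84 TPM, and in wild-type cerebellum they were 164 ± 3.71 and 22.3 ± 1.71 TPM. These sums and shares describe RNA levels per deposited gene length and were not tested.

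**Figure D2:**
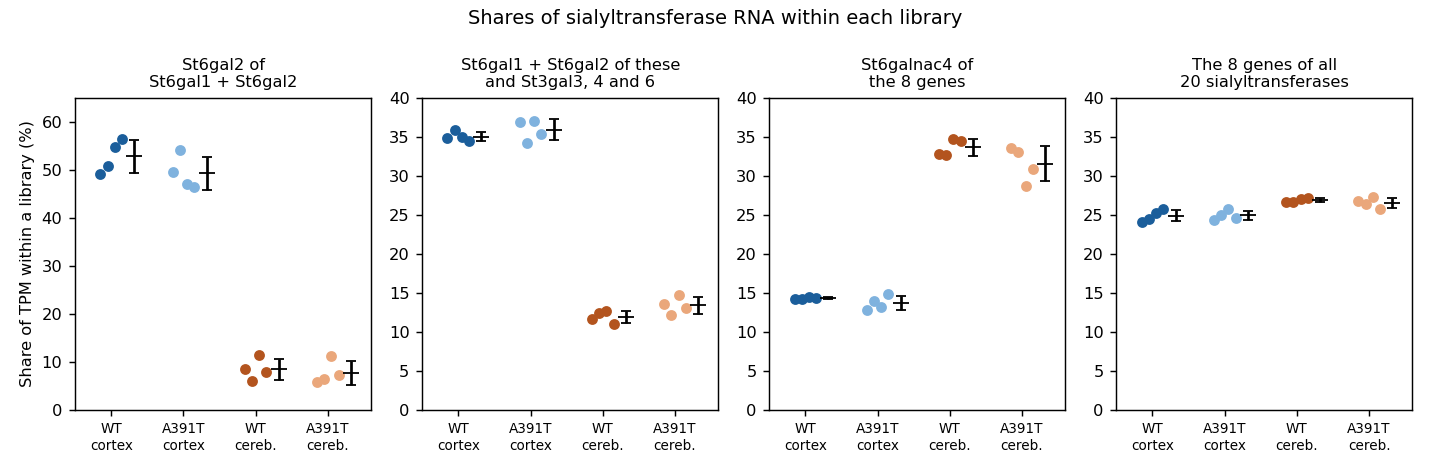
Share in percent (vertical axes, from 0, the first panel on a wider scale) of the TPM of a set of genes within each library, with 1 point per library and the mean ± SD (n = 4). The share of *St6gal2* in its pair and of the pair in the 5 galactose-directed genes is lower in all 8 cerebellum libraries, the share of *St6galnac4* in the 8 genes is higher, and the share of the 8 genes in all 20 sialyltransferases stays between 24.1% and 27.3%.

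Of the 3 genes for O-glycan enzymes among the 8, *St3gal1* was lower in cerebellum, *St6galnac4* was higher and *St6galnac3* did not pass the test. These are not all the sialyltransferase genes for O-glycans, and *St3gal2* is given below. *St3gal1* caps the galactose of the core 1 O-glycan, and the St6galnac enzymes act on the product. In wild-type cortex *St3gal1* stood at 21.3, 20.4, 21.8 and 14.9 TPM in mice 1 to 4. In wild-type cerebellum it stood at 6.49, 5.90, 7.92 and 6.21 TPM. The cortex library of mouse 4 was lower than the other cortex libraries, and still above every cerebellum library. The wild-type log2 fold change was -1.72 (SE 0.13, adjusted p = 4.1e-07 from edgeR). In A391T cortex the level was 22.9, 21.6, 21.3 and 22.0 TPM in mice 1 to 4. In A391T cerebellum it was 2.76, 3.87, 8.41 and 5.65 TPM, and the groups did not overlap. The A391T log2 fold change was -2.21 (SE 0.26, adjusted p = 3.6e-05 from edgeR). The within-mouse log2 ratio was negative in 8 of 8 mice and lay between -3.05 and -1.27.

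*St6galnac4* had the highest cerebellum level among the 8 genes. In wild-type cortex it stood at 31.4, 32.1, 34.5 and 31.0 TPM in mice 1 to 4. In wild-type cerebellum it stood at 97.5, 101.4, 107 and 107 TPM. The spread within each group was small beside the gap between them. The log2 fold change was 1.52 (SE 0.05, 95% interval 1.40 to 1.65, adjusted p = 9.1e-10 from edgeR). In A391T mice the level was 29.0, 31.95, 31.0 and 33.3 TPM in cortex of mice 1 to 4. In their cerebellum it was 87.8, 99.4, 85.1 and 92.6 TPM, and the log2 fold change was 1.44 (SE 0.07, adjusted p = 1e-07 from edgeR). The within-mouse log2 ratio lay between 1.46 and 1.78 over the 8 mice. *St6galnac4* made up 14.3% ± 0.15 of the summed TPM of the 8 genes in wild-type cortex and 33.7% ± 1.09 in wild-type cerebellum (SD, n = 4 each).

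*St6galnac3*, whose enzyme also acts on sialylated core 1 chains and on a ganglioside, was the gene with the fewest reads, from 39 to 78 counts per library. Its level was 8.59 ± 1.80 TPM in wild-type cortex and 9.92 ± 1.38 TPM in wild-type cerebellum, and the groups overlapped. The log2 fold change was 0.05, with a 95% interval from -0.34 to 0.44 (adjusted p = 0.81 from edgeR). In A391T mice it was 0.01, with an interval from -0.33 to 0.34 (adjusted p = 0.97 from edgeR). A difference within these intervals is not excluded.

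In A391T mice the same 3 genes passed both criteria, with and without the cerebellum library of mouse 1. Without it the log2 fold change of *St6gal2* was -3.92, that of *St3gal1* -2.02, that of *St6galnac4* 1.43, that of *St3gal6* 0.68 and that of *St3gal3* 0.33. With all 8 A391T libraries 1 of the 8 genes was called higher in cerebellum and 2 lower, where 9.80% and 14.9% of the 16005 genes tested were. By the adjusted p alone 4 were higher and 3 lower, where 31.6% and 31.3% of all genes tested were. Over all genes tested these were 5051 higher and 5005 lower, and 6507 higher and 4175 lower when libraries were scaled by their totals in place of TMM factors. Without the cerebellum library of mouse 1 they were 5945 higher and 5852 lower.

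**Figure D3:**
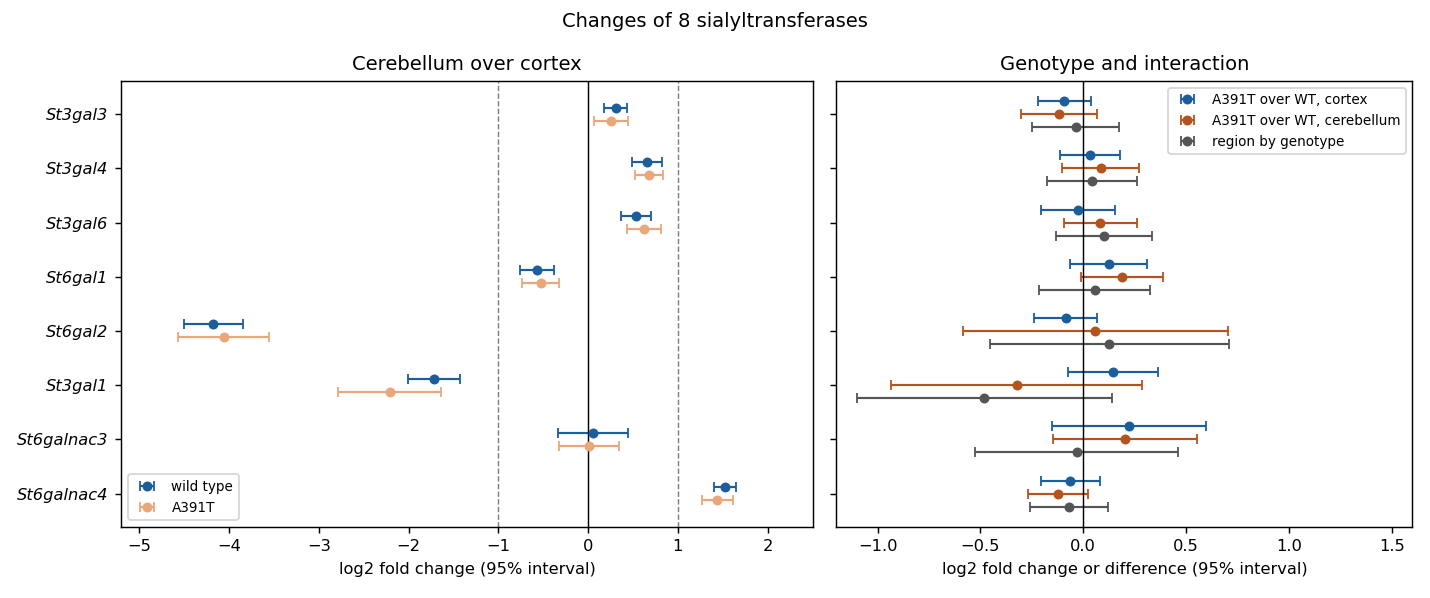
Fitted log2 fold change (horizontal axes) of each gene with its 95% interval, on the left for cerebellum over cortex in each genotype, with dashed lines at the 2-fold criterion, and on the right for A391T over wild type in each region and for the interaction. On the left *St6gal2* and *St3gal1* lie below -1 and *St6galnac4* above 1 in both genotypes, and on the right every interval spans 0.

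The order of the 8 genes by level per length differed between the regions. Neighbours in the order were compared within libraries over the 8 mice of both genotypes, by an exact two-sided sign-flip test on log2 TPM ratios with Benjamini-Hochberg adjustment over 14 pairs. With 8 mice the smallest p this test allows is 0.00781, which is 0.0109 after adjustment, and 10 of the 14 pairs reached it. In cortex the order was *St3gal3* at 56.5 ± 3.08 TPM, *St3gal4* at 41.7 ± 1.77, *St6galnac4* at 31.8 ± 1.66, *St6gal2* at 29.9 ± 2.11, *St6gal1* at 28.7 ± 2.90, *St3gal1* at 20.8 ± 2.47, *St6galnac3* at 9.41 ± 1.74 and *St3gal6* at 8.32 ± 0.541 TPM (SD, n = 8 mice). Of these neighbours, 3 pairs did not differ beyond their spread. These were *St6galnac4* and *St6gal2* (exact sign-flip adjusted p = 0.0994), *St6gal2* and *St6gal1* (adjusted p = 0.469) and *St6galnac3* and *St3gal6* (adjusted p = 0.128).

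In cerebellum the order was *St6galnac4* at 97.2 ± 8.15 TPM, *St3gal3* at 75.4 ± 8.73, *St3gal4* at 72.1 ± 3.82, *St6gal1* at 21.4 ± 1.96, *St3gal6* at 13.6 ± 1.15, *St6galnac3* at 10.5 ± 1.63, *St3gal1* at 5.90 ± 1.88 and *St6gal2* at 1.89 ± 0.661 TPM (SD, n = 8 mice). Here only *St3gal3* and *St3gal4* were neighbours that did not differ beyond their spread (exact sign-flip adjusted p = 0.469), and *St3gal3* was the higher one in 5 of 8 mice. Per length, *St6gal2* was in place 4 in wild-type and in place 5 in A391T cortex, and in place 8 of 8 in cerebellum. The order in both regions rests on the deposited gene lengths. An error in a length shifts a ratio alike in every mouse, which the sign-flip test cannot show. The deposited lengths of *St6gal1*, *St3gal6* and *St3gal3* were 3496, 6595 and 3732 bases, where the annotated exons cover 4914, 6080 and 2768 bases. By CPM, the count relative to the library total with no length, *St6gal2* led in wild-type cortex at 64.9 against 58.9 for *St3gal3*, and *St3gal4*, at 22.5, lay under *St6galnac4*, *St6gal1* and *St3gal1*. By CPM in wild-type cerebellum, *St6galnac3* was the lowest at 2.42 against 3.89 for *St6gal2*, and *St3gal6*, at 23.6, lay above *St6gal1*, at 19.0. The summed TPM of the 8 genes was 226 ± 8.94 in wild-type cortex and 306 ± 6.24 in wild-type cerebellum (SD, n = 4 each). Their share of all 20 sialyltransferases was 24.9% ± 0.736 and 26.9% ± 0.269 in these groups, so most sialyltransferase RNA came from the other 12 genes in both regions.

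The genes whose levels followed those of the called genes most closely were found from log2 CPM over the 16 libraries. For *St6gal2* these were *Ngef*, *Cckbr* and *Cobl*, each with a Pearson correlation of 0.999. For *St3gal1* they were *Zfp92* at 0.991 and *Elfn1* and *Magi3* at 0.987. For *St6galnac4* they were *Grin2c* at 0.997 and *Triobp* and *Pde9a* at 0.996. The 16 points are 8 cortex and 8 cerebellum libraries of the same 8 mice, so the gap between the regions carries these values, and they are a description.

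The A391T change of the metal transporter was compared with wild type within each region, which is the comparison named in the title of the series. In cortex the 8 genes had log2 fold changes from -0.09 to 0.22, and 0 of them passed the adjusted p of edgeR, where 0.0126% of the 15815 genes tested did. No gene of the 8 had an unadjusted p under 0.05, where 395 genes were higher and 353 lower at that limit. By the adjusted p alone, 14 genes passed in DESeq2 and 13 in the exact test of edgeR, with 0 of the 8 among them. The widest value was that of *St6galnac3*, at 0.22 with a 95% interval from -0.15 to 0.60. With the genotype names of the RPKM table it was at -0.087, and *St3gal4* and *St6gal1* also changed sign, to -0.030 and -0.025. For *St6gal2* the interval was -0.24 to 0.07 and for *St3gal3* -0.22 to 0.04.

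In cerebellum 0 of the 8 genes passed the adjusted p of edgeR, where 0% of the 15668 genes tested did, and again no gene of the 8 had an unadjusted p under 0.05. Over all genes, 767 were higher and 573 lower at an unadjusted p under 0.05. By the adjusted p alone, 37 genes passed in DESeq2 and 17 in the exact test of edgeR, with 0 of the 8 among them. *St3gal1* was at -0.32, with a 95% interval from -0.93 to 0.29. It was at -0.14 without the library of A391T mouse 1, at -0.20 without that of A391T mouse 2 and at -0.66 without that of A391T mouse 3. *St6gal2* was at 0.06, with an interval from -0.59 to 0.70. With the genotype names of the RPKM table *St6gal2* was at -0.57, with only the mice named alike in both sources at -0.55, and without A391T mouse 3 at -0.28. With only the mice named alike *St3gal1* was at -0.98. *St6gal1* was at 0.19, with an interval from -0.01 to 0.39 (unadjusted p = 0.061, adjusted p = 0.53, both from edgeR), with 20.4 ± 1.64 TPM in wild-type and 22.4 ± 1.86 TPM in A391T libraries. With the genotype names of the RPKM table it was at 0.0068 (adjusted p = 0.98 from edgeR). The intervals of *St3gal1* and *St6gal2* are the widest of the 8.

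The region difference itself did not differ between the genotypes past the adjusted p for any of the 8 genes in edgeR or DESeq2, where 0% of the 16589 genes tested did in edgeR. No gene of the 8 had an unadjusted p under 0.05, against 426 genes with a positive and 379 with a negative value over all genes. The interaction, the A391T region difference less the wild-type one, was -0.48 on the log2 scale for *St3gal1*, with a 95% interval from -1.10 to 0.14 (unadjusted p = 0.12, adjusted p = 0.77, both from edgeR). It was at -0.29 without the cerebellum library of A391T mouse 1 and at -0.81 without that of A391T mouse 3. With only the mice named alike in both sources it was at -1.26. For the other genes the interaction lay between -0.07 and 0.13, with *St6gal2* at 0.13 (interval -0.45 to 0.71). With the genotype names of the RPKM table *St6gal2* was at -0.55 and *St6galnac4* at 0.10. With only the mice named alike *St6gal2* was at -0.45.

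A pair of cerebellum libraries, A391T mouse 3 and wild-type mouse 3, had the highest levels of both genes that were called lower, although neither was past the limit of Dixon's outlier test for these genes. They had the highest *St6gal2* of their groups, at 3.12 and 2.68 TPM against 1.25 to 1.81 TPM in the other 6 cerebellum libraries. They also had the highest *St3gal1*, at 8.41 and 7.92 TPM against 2.76 to 6.49 TPM. The same 2 libraries had 70.7 and 47.9 TPM of *Slc17a6*, the vesicular glutamate transporter typical of deep and brainstem neurons, against 14.5 to 26.5 TPM in the other 6. *Sst* was at 143 and 106 TPM in them against 15.6 to 34.9 TPM, and *Drd2* at 10.3 and 10.7 TPM against 1.13 to 2.74 TPM. *Drd2* belongs to the striatal markers described below, whose sum was not raised. It was 251.8 and 251.4 TPM in the same 2 libraries, against 249.97 to 310.5 TPM in the other 6. *Slc17a6*, *Sst* and *Drd2* were named after their values were seen, and their part in these results was not tested. *St6gal1* and *St6galnac4* were not at their highest in both libraries. Without both, the log2 fold change of *St6gal2* was -4.40 in wild-type and -4.38 in A391T mice, that of *St3gal1* -1.82 and -2.53, and the same 3 genes were called.

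**Figure D4:**
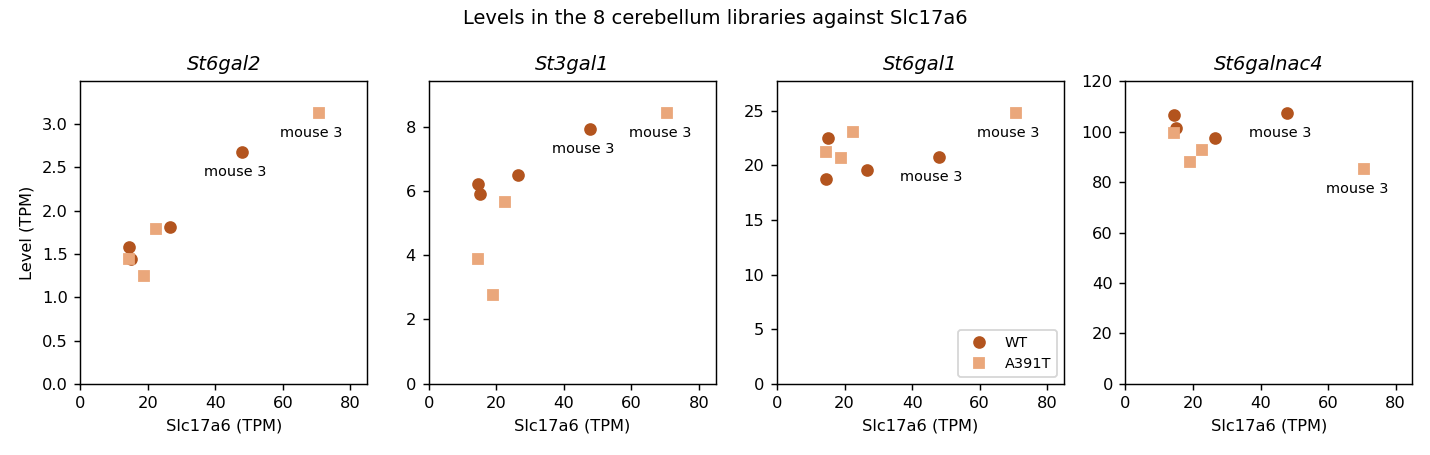
Level in TPM of *St6gal2*, *St3gal1*, *St6gal1* and *St6galnac4* (vertical axes, from 0) against *Slc17a6* in TPM (horizontal axes) in the 8 cerebellum libraries, circles for wild type and squares for A391T. Mouse 3 of each genotype lies at the right, at the top for *St6gal2* and *St3gal1*, while *St6galnac4* is lowest in A391T mouse 3 and highest in wild-type mouse 3.

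Markers of other cell types also moved with region. All 6 microglial markers were lower in cerebellum past both criteria in wild-type mice, with a summed level of 584 to 652 TPM in cortex and 216 to 232 TPM in cerebellum. Of the 5 astrocyte markers 2 were higher past both criteria, with wild-type sums of 847 to 924 TPM in cortex and 1477 to 1635 TPM in cerebellum. Oligodendrocyte markers, 0 of 6 past both criteria, summed in the same wild-type groups to 3775 to 4129 and 3527 to 5036 TPM, and endothelial markers, 0 of 6, to 306 to 468 and 282 to 380 TPM. Striatal markers, 5 of 6 lower in cerebellum, ran from 265 to 907 TPM over the 8 cortex libraries, with the lowest in A391T mouse 3. All 4 choroid plexus markers tested were higher, with sums from 41.7 to 8098 TPM over the 8 cerebellum libraries. Of the 4 hippocampal markers 1 was higher and 2 were lower, and of the 5 blood markers none passed both criteria. No marker of these lists was at 0 in all libraries of a group, and their part in the values of the 8 genes was not tested. The cerebellum libraries of A391T mouse 4 and wild-type mouse 3 had the least choroid plexus RNA, at 41.7 and 42.9 TPM, with 92.6 and 107 TPM of *St6galnac4* and 1.79 and 2.68 TPM of *St6gal2*. That of wild-type mouse 2 had the most, with 101.4 TPM of *St6galnac4* and 1.44 TPM of *St6gal2*.

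The other 12 sialyltransferases, most of which act on glycolipids or build sialic acid chains, gave 2 calls higher in cerebellum and 3 lower among the 11 tested in wild-type mice. *St6galnac5*, a gene for a ganglioside enzyme, was at -3.97 on the log2 scale (SE 0.08), from 46.5 TPM in wild-type cortex to 3.31 TPM in wild-type cerebellum. *St8sia2*, a polysialic acid gene, was at -1.78 (SE 0.17). *St8sia5* and *St8sia1*, both for ganglioside enzymes, were at 1.43 and 1.07. *St3gal2*, whose enzyme also acts on core 1 chains, stood at 117 ± 13.7 TPM in wild-type cortex and at 186 ± 8.01 TPM in wild-type cerebellum, with a log2 fold change of 0.52 (adjusted p = 0.00011 from edgeR). The median of the 11 genes was -0.28.

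Of the 4 genes tested that make, activate or carry sialic acid, 0 passed both criteria. By the adjusted p alone *Nans*, the synthase, was higher at 0.42 and *Cmas*, which makes CMP-sialic acid, lower at -0.69. *Nanp* and *Cmah*, the gene for the enzyme that turns the acetyl form of CMP-sialic acid into the glycolyl form, did not pass the filter, with *Cmah* at 0.04 TPM in wild-type cortex and 0.08 TPM in wild-type cerebellum.

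Among the genes that build the acceptor galactose, 1 of 8 was called, *B4galt2*, a gene for a galactosyltransferase of N-glycan branches, at -1.60 (SE 0.08). Of the 4 sialidases *Neu2* was called, at -2.26 (SE 0.18). Of the 4 sialic acid lectins tested 3 were called lower in cerebellum, among them *Siglech* at -2.25 and *Cd33* at -2.10, both known as myeloid genes, while *Mag*, the myelin lectin, was at 0.12 (adjusted p = 0.24 from edgeR).

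The promoters of *St6gal2* and *St6galnac4*, which had the smallest adjusted p of the 8 genes in wild-type mice, are shown because these genes differed between regions in opposite directions. They are RefSeq windows on GRCm38.p6, from 250 bases before to 50 bases after the start, written 5′ to 3′ on the strand of the gene. Each GGGCGG, the GC box, is in capitals, as is its reverse complement CCGCCC.
*St6gal2*, chr17:55445132-55445431, plus strand: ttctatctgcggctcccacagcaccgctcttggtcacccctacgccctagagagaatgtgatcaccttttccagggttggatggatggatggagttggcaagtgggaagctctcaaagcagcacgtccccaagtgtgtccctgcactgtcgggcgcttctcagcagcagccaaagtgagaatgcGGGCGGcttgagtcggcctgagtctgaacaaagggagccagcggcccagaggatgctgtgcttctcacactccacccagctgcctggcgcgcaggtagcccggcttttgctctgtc
*St6galnac4*, chr2:32586828-32587127, plus strand: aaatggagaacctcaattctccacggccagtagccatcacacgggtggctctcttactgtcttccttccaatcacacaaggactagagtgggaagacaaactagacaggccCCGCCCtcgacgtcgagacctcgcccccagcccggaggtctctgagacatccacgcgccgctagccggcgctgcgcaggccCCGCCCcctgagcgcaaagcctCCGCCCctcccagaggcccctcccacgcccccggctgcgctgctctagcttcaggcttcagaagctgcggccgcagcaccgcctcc

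The *St6gal2* window held 1 GC box and 13 CpG dinucleotides, and the *St6galnac4* window 3 GC boxes and 23 CpG dinucleotides. Of all 32851 windows of this length, 35.7% held a GC box on either strand, and the median number of CpG dinucleotides was 7. Neither window held TATAAA on either strand, a sequence found in 13.6% of all windows. These matches describe the letters of the windows and not the binding of a factor.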

How the data were processed

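RNA was purified from snap-frozen cortex and cerebellum, and polyA-selected directional libraries were sequenced. The authors aligned the reads to mm9 with STAR and used HTSeq and the Ensembl annotation to make the deposited counts, which are raw and ignore strand. RPKM values of the same libraries were deposited by the authors in 1 table, beside a gene length in bases. Each column of it was matched by proportion to 1 count file, and 8 of the 16 columns bear another name than that file. The RPKM values were used for this match and for names only. Reads on no single gene, from 10.2% to 13.2% on no gene and from 2.20% to 2.75% ambiguous, stayed out of totals and tests.

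From the counts, TPM was computed with the table's gene length, and CPM without it. The tests of differences used edgeR 4.0.16 under R 4.3.3 (filterByExpr, TMM, quasi-likelihood test, Benjamini-Hochberg over all genes tested), on the 8 libraries of each comparison or on all 16 for the interaction. The standard error is the size of the log2 fold change divided by the square root of the F statistic. In simulated counts 200 genes above a floor on expected counts were changed 2-fold or 4-fold, up or down. By the adjusted p alone, 192 were recovered with 8 false calls among 15542 genes for the wild-type region comparison. For the cortex genotype comparison 195 were recovered, with 14 false calls among 15643 genes. Smaller changes, and as many changed genes as the region comparison had, were not simulated. Alternatives were DESeq2 1.42.0, the exact test of edgeR, RLE factors, library totals, no filter, all 16 libraries in 1 model, the adjusted p alone, the test of edgeR against a 2-fold change (glmTreat), a replicate block for the mouse, the names of the RPKM table with and without that block, only the 4 mice with the same name in both sources, and each library left out. Leaving out both cerebellum libraries with high *Slc17a6* was chosen after seeing the data.

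Both regions of a mouse carry its number, and the study states that they come from the same animals. Deviations from the group means correlated across genes from -0.20 to 0.27 between regions of the same mouse and from -0.30 to 0.28 between regions of different mice. The 8 genes, the other lists and the tests were chosen with earlier results of these data known. The named genes are the 8 genes, up to 2 called genes per direction with the widest wild-type region difference in each other list of the sialic acid pathway, and the 3 genes with the highest correlation to each called gene. *St3gal2*, *Nans*, *Cmas*, *Nanp*, *Cmah*, *Mag*, *Dcbld2*, *Slc17a6*, *Sst* and *Drd2* fall outside this rule and were chosen after their values were seen. Marker lists were described by counts and sums. Of the 8 genes, 7 had a RefSeq promoter entry, *St3gal1* being the other one. Python 3.11.15 with pandas 2.3.3 and numpy 2.4.6 was used for levels and sequences.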

Additional observations from a re-analysis of the deposited data

Results flagged for a closer look

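The level of each of the 8 genes in each group of 4 libraries was checked for a library far from the other 3, by the gap to its nearest neighbour over the range of the group. Chance alone gives about 1 such case in 20 groups, and 2 of 32 were found. The *St3gal3* level of 63.6 TPM in wild-type cortex of mouse 3 lay above the other 3 libraries, which ran from 55.4 to 56.7 TPM. The *St3gal6* level of 11.2 TPM in A391T cerebellum of mouse 1 lay below the other 3 libraries, at 14.3 to 14.7 TPM. That library was also the lowest A391T cerebellum library for *St3gal1*, *St3gal3*, *St6gal1*, *St6gal2* and *St6galnac3*, and among the 8 cerebellum libraries it had the lowest sum of all 20 sialyltransferases, 975 TPM.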

How the results depend on the processing

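The 3 calls in each region comparison were made in every alternative, with *St6gal2* between -4.40 and -3.86 on the log2 scale in wild-type and between -4.56 and -3.92 in A391T mice, *St3gal1* between -1.82 and -1.54 and between -2.82 and -2.02, and *St6galnac4* between 1.43 and 1.65 and between 1.40 and 1.57. With the adjusted p alone the count was 7 in each genotype. With mouse as a replicate block the count stayed at 3, with *St6gal2* at -4.19 and *St3gal1* at -1.71 in wild-type mice, and the block changed no other call. With only the mice named alike in both sources, 2 per genotype, the adjusted p of *St3gal3* was 0.057 in wild-type and 0.4 in A391T mice and that of *St6gal1* in A391T mice was 0.052. Library totals moved the median log2 fold change of all genes from 0.02 to 0.14 in wild-type and from 0.03 to 0.16 in A391T mice, and no called gene changed direction. No gene of the 8 was called in a genotype comparison or in the interaction under any alternative. CPM in place of TPM gave 13 of 14 neighbouring pairs past the adjusted p in a different order of genes. Leaving out each mouse gave 10 to 11. As numbers, 23 of 32 group levels differed between TPM and CPM by more than the spread between replicates. The units differ by gene length, so this does not speak to how stable the levels are. With the mice named alike *St3gal1* was at -0.98 for A391T over wild type in cerebellum and at -1.26 in the interaction. Signs changed only in values that were not called. In the A391T region comparison *St6galnac3* was at -0.0029 with DESeq2, -0.0032 with RLE factors, -0.0067 with the names of the RPKM table, -0.075 with the mice named alike and -0.086 without both cerebellum libraries with high *Slc17a6*. Leaving out 1 library gave *St6galnac3* -0.072 to 0.17 in the wild-type and -0.086 to 0.091 in the A391T region comparison. With the names of the RPKM table, A391T over wild type in cortex was -0.030 for *St3gal4*, -0.025 for *St6gal1* and -0.087 for *St6galnac3*, and in cerebellum -0.57 for *St6gal2*, -0.13 for *St6galnac3* and 0.043 for *St6galnac4*. In cerebellum *St6gal2* was at -0.55 with the mice named alike, at -0.059 without both libraries with high *Slc17a6*, and from -0.28 to 0.26 with 1 library left out, the lowest without A391T mouse 3. In cortex *St3gal6* was from -0.071 to 0.023 with 1 library left out. The interaction of *St6gal2* was -0.55 with the names of the RPKM table, -0.52 with these names and the replicate block, and -0.45 with the mice named alike, and that of *St6galnac4* 0.10, 0.11 and 0.039. That of *St3gal4* was -0.00049 without both libraries with high *Slc17a6*. With 1 library left out the interaction ran from -0.081 to 0.035 for *St3gal3*, -0.013 to 0.12 for *St6gal1*, -0.20 to 0.34 for *St6gal2* and -0.15 to 0.090 for *St6galnac3*. The cause of these changes was not tested. The counts of *St6galnac3* were at most 78 per library, and their part in its precision was not tested.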
